A study of Mus musculus with 3 samples.

Results

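The Zbtb genes are the mouse genes with a Zbtb symbol, most of which encode transcription factors that carry a BTB domain at one end and C2H2 zinc fingers at the other. They were taken as the probe sets whose only platform gene symbol is Zbtb, a number and an optional letter. Zbtb7b, Zbtb16 and Zbtb8os were left out, and a gene with several probe sets was represented by the brightest. This gave 38 of the 19938 genes on the array, and all 38 entered every count below with no filter on low values. Expression was measured on Affymetrix arrays in thymocytes that carry both the CD4 and the CD8 coreceptor, called double-positive (DP) cells, in 3 samples. All 3 came from C57BL/6 mice of wild-type genotype, 5 to 6 weeks old, and the cells were sorted first on CD8 beads and next on CD4 beads. Each array holds one cohort of litter mates, so a sample pools several animals, and the sex of the mice is not labelled. There is a single group and no second condition, so the values below are levels in DP cells and differences between cohorts.

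The BTB domain, also called POZ, joins these proteins in pairs and binds corepressors such as the NCoR and BCOR complexes, and in some members the ubiquitin ligase subunit CUL3. The zinc fingers read the DNA, and most well-studied members act as repressors. In the T lineage the family is known for deciding cell fate: Zbtb7b, which encodes ThPOK, commits cells to the CD4 lineage, and Zbtb16, which encodes PLZF, directs innate-like T cells such as NKT cells.

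The values are the deposited log2 expression values, so that 1 unit is a doubling, and SDs are over the 3 arrays. A gene was called above background on an array where it exceeded the 95th percentile of a list of 94 measured genes that are specific to organs other than the thymus. This limit was 7.35 on array 1, 7.47 on array 2 and 7.39 on array 3. In all, 8204 of the 19938 genes (41.1%) exceeded it on all 3 arrays, and 4 of the 94 organ genes did. The affinity of its probes also sets a gene's value, so a gene was compared with itself between arrays and with the background limit. Medians over lists of genes are descriptions, and the order of different genes' values says nothing of their RNA levels. In bulk samples such as these, fewer cells that express a gene and less RNA per cell cannot be told apart. All 10 measured DP markers, among them Cd4, Cd8a, Rag1 and Rag2, lay above background on every array. Markers of other cell types did so for 1 of 5 B cell, 1 of 10 myeloid and dendritic, 1 of 8 thymic epithelial, 0 of 3 erythroid, 2 of 7 NKT and innate-like and 2 of 6 stromal genes. Array 1 stood apart. Pearson's r over 28944 probe sets was 0.993 between array 1 and either other array and 0.996 between arrays 2 and 3. The female transcript Xist had 11.65 on array 1 against 5.40 and 5.68 on arrays 2 and 3, and the Y-linked Eif2s3y had 4.21 on array 1 against 10.29 and 10.08.

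Promoter windows are shown for Zbtb6, Zbtb26 and Zbtb21, because the first pair are neighbouring genes that were both lower on array 1 and the last was the member above background with the largest excess on array 1. Each window runs from 250 bases before to 50 bases after the start of the gene, 5′ to 3′ on the gene's strand, and comes from RefSeq on GRCm38.p6. The windows lie at chr2:37430870-37431169 on the minus strand, chr2:37443123-37443422 on the minus strand and chr16:97962573-97962872 on the minus strand. Capitals mark matches, on either strand, to the letters CCGGAAG (an ETS core), TGTGGT (a RUNX core) and TGACGTCA (the cyclic AMP response element, CRE).
Zbtb6: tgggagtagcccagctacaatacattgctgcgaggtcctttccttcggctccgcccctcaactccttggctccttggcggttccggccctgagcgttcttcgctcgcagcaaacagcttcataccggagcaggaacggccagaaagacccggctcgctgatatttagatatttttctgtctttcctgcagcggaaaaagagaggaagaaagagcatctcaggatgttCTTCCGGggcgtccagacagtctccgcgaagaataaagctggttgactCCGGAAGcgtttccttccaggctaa
Zbtb26: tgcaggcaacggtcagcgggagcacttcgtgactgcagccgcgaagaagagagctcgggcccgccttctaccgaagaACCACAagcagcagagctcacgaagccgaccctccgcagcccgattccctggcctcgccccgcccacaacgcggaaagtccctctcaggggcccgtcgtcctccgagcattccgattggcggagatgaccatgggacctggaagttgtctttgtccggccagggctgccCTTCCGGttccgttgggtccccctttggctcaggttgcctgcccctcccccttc
Zbtb21: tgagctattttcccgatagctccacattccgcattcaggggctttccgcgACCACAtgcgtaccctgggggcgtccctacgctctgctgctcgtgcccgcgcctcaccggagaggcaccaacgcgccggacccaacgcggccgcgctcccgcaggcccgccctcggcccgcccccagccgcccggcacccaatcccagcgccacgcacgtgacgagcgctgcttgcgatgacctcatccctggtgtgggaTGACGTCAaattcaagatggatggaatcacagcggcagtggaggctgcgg
The window of Zbtb6 holds the ETS letters at positions -23 and 25 from the start, and that of Zbtb26 holds them at position -4, with the RUNX letters at -173. The window of Zbtb21 holds the RUNX letters at -200 and the CRE letters at the start itself. A match is a description of the letters and not evidence of binding.

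Most of the Zbtb genes were detected in DP thymocytes. Of the 38 members, 30 (78.9%) lay above background on all 3 arrays, against 41.1% of all genes. A further 1 did so on some arrays only, against 3.02% of all genes, and 7 on none. Their median value was 8.31, against 6.85 for all genes, and it was 8.29, 8.31 and 8.31 on arrays 1, 2 and 3, an SD of 0.01. As a reference from other zinc finger genes, 77 of 147 genes named Zfp1 to Zfp500 (52.4%) lay above background on all arrays, with a median of 7.67. Of 17 genes with a Klf symbol, 11 (64.7%) did so, with a median of 8.43, higher than that of the Zbtb genes. No test was made of these differences between lists. A stricter limit, the 99th percentile of the organ genes, left 23 members, against 34.4% of all genes, and the 7 that it removed were Zbtb4, Zbtb8a, Zbtb37, Zbtb38, Zbtb39, Zbtb42 and Zbtb48.

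**Figure D1:**
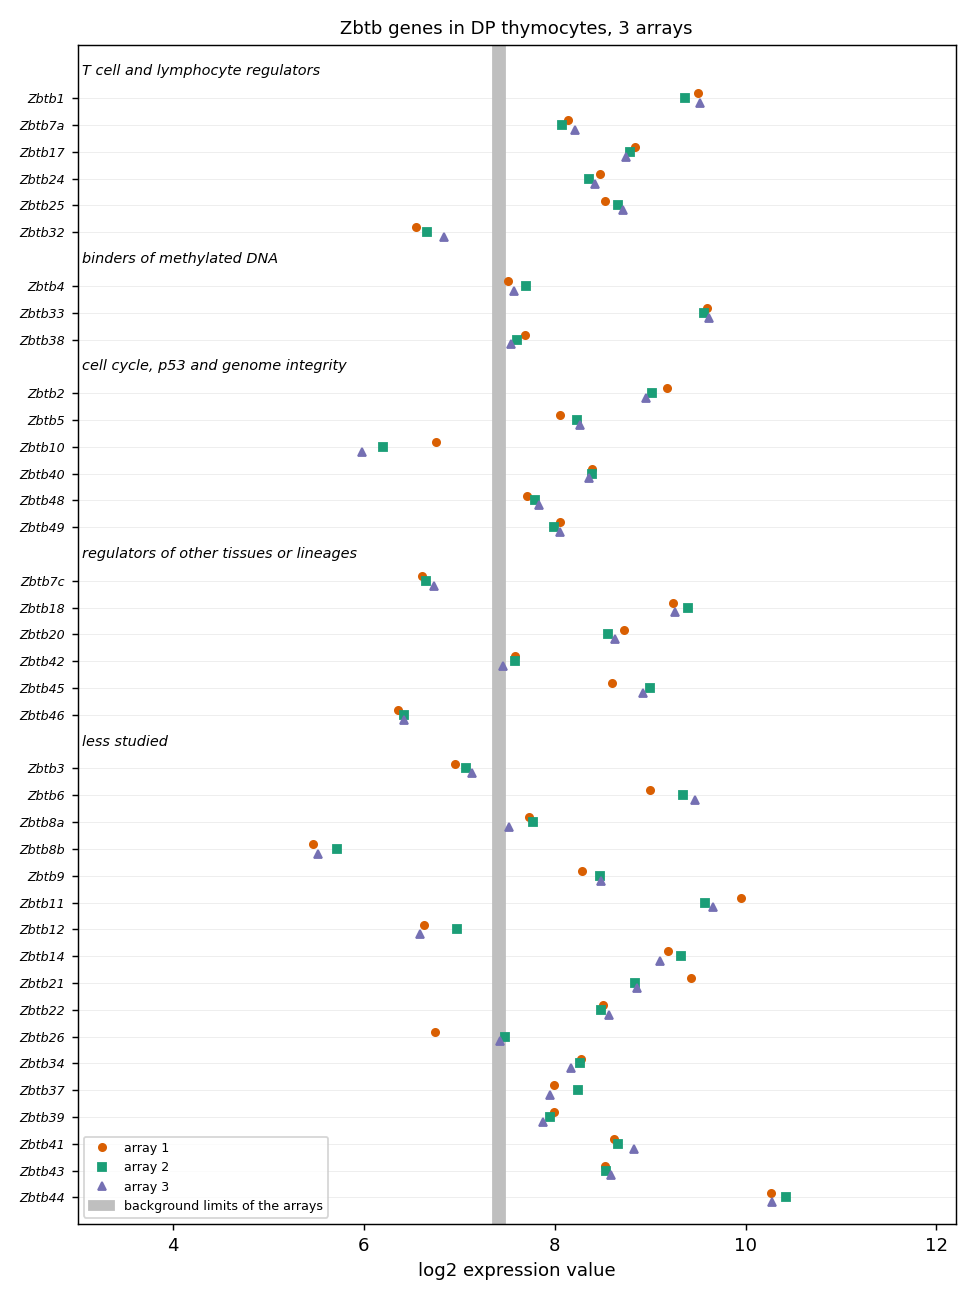
Log2 expression value (horizontal axis) of each Zbtb gene on arrays 1, 2 and 3 (circles, squares and triangles), with the genes grouped by role. The grey band spans the background limits of the arrays, 7.35 to 7.47; 30 of the 38 genes lie right of their limits on every array, and the 3 symbols of a gene mostly sit close together.

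Among the members known to regulate lymphocytes, 5 of 6 lay above background on all arrays. The share was 78.9% over the 38 members and 41.1% over all genes. Zbtb1, which mice need to form T cells and other lymphocytes, had 9.50, 9.37 and 9.52 on arrays 1, 2 and 3 (9.46 ± 0.08, SD, n = 3 here and below). Zbtb17, which encodes the Myc partner Miz-1 and is needed by early lymphoid progenitors, had 8.84, 8.79 and 8.75 (8.79 ± 0.05). Both exceeded the limit on each array by more than the arrays differed from each other. Zbtb7a encodes LRF, a repressor that restrains Notch-driven T cell fate in bone marrow progenitors and acts with ThPOK in CD4 cells. It had 8.14, 8.08 and 8.21 (8.14 ± 0.07). Zbtb24, whose loss in humans causes an immunodeficiency with loss of DNA methylation at centromeric repeats, had 8.47, 8.36 and 8.42 (8.42 ± 0.06). Zbtb25, the direct neighbour of Zbtb1 on chromosome 12, had 8.53, 8.66 and 8.72 (8.64 ± 0.10). The starts of this pair lie 960 bases apart on opposite strands, and both genes were above background. The exception was Zbtb32, which encodes ROG, a repressor of GATA3 activity in activated T cells. It had 6.55, 6.66 and 6.84 (6.68 ± 0.15) and was below the limit on every array.

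The lineage regulators left out of the 38 were not detected. Zbtb7b had 7.08, 6.83 and 6.87 on arrays 1, 2 and 3 (6.93 ± 0.13), below background on each. Zbtb16 had 6.45, 6.27 and 5.94 (6.22 ± 0.26), also below on each, as were 4 of the 7 measured markers of NKT and innate-like cells, a list that includes it. Neither the CD4 lineage regulator nor the innate-like one exceeded background in these sorted cells.

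All 3 members that bind methylated DNA were above background, against 78.9% of the 38 members and 41.1% of all genes. Zbtb33 encodes Kaiso, which reads methylated CpG pairs and also an unmethylated motif, and which partners p120 catenin. It had 9.60, 9.56 and 9.62 on arrays 1, 2 and 3 (9.59 ± 0.03). Zbtb33 is the only member on the X chromosome, and its value on array 1, the array with high Xist, lay between those of the other arrays. Zbtb4 and Zbtb38 encode the related methyl-CpG readers. Zbtb4 had 7.51, 7.70 and 7.57 (7.59 ± 0.10), and Zbtb38 had 7.69, 7.60 and 7.54 (7.61 ± 0.08). Both lay just above the limit on every array, and neither passed the stricter one.

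Of the 6 members tied to the cell cycle, p53 or genome integrity, 5 lay above background on all arrays. Over the 38 members the share was 78.9%, and over all genes 41.1%. Zbtb2, a repressor of the p53 pathway in human cells, had 9.18, 9.02 and 8.96 on arrays 1, 2 and 3 (9.05 ± 0.11). Its other probe set gave 8.97, 8.62 and 8.59, so both were above background and both were highest on array 1. The identifiers of these probe sets lie far apart in the platform's numbering. That of the dimmer one lies near that of Zbtb24, which is on chromosome 10 like Zbtb2. That of the brighter one lies near those of Zbtb6 and Zbtb34 on chromosome 2. The brighter values may therefore not be those of Zbtb2, and whether that probe set reads the Zbtb2 locus was not tested. Zbtb5, a repressor of the p21 cell cycle inhibitor in human cells, had 8.06, 8.23 and 8.26 (8.18 ± 0.11). Zbtb49, which activates p21 in human cells, had 8.06, 7.99 and 8.06 (8.04 ± 0.04). The factors with opposite effects on p21 were thus both detected. Zbtb48 encodes TZAP, which binds and trims long telomeres, and had 7.71, 7.79 and 7.83 (7.78 ± 0.06), above the limit but below the stricter one. Zbtb40 had 8.39, 8.39 and 8.36 (8.38 ± 0.02), the narrowest spread of the 38. Zbtb10, which binds variant telomeric repeats in human cells, was below background on all arrays, with 6.76, 6.20 and 5.98.

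Of the 6 members best known from other tissues, 4 lay above background on all arrays. The share was 78.9% over the 38 members and 41.1% over all genes. Zbtb18, a repressor needed for the development of cortical neurons, had 9.24, 9.40 and 9.26 on arrays 1, 2 and 3 (9.30 ± 0.09). Zbtb20, which silences alpha-fetoprotein in the liver and shapes the hippocampus, had 8.73, 8.56 and 8.63 (8.64 ± 0.09). Both were clearly above background in thymocytes, and the other probe set of Zbtb20 gave 8.50, 8.52 and 8.63. Zbtb45, a regulator of glial differentiation, had 8.60, 9.00 and 8.92 (8.84 ± 0.21). Zbtb42, which acts in skeletal muscle, lay just above the limit with 7.58, 7.58 and 7.46 (7.54 ± 0.07). Zbtb46, which marks classical dendritic cells and their committed progenitors, had 6.36, 6.42 and 6.42 (6.40 ± 0.03), below the limit on every array. Zbtb7c, with 6.61, 6.65 and 6.73 (6.66 ± 0.06), was also below.

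Of the 17 less studied members, 13 lay above background on all arrays, 1 on some and 3 on none. Over the 38 members 78.9% lay above it on all arrays, and over all genes 41.1%. Zbtb44 had 10.27, 10.42 and 10.28 on arrays 1, 2 and 3 (10.32 ± 0.08). Its other probe set gave 9.14, 9.27 and 9.15. It differed from the first by -1.14 on average, with array 2 highest in both. Zbtb14, which encodes the repressor ZF5, had 9.19, 9.32 and 9.10 (9.20 ± 0.11). Zbtb21, whose human product binds ZF5, was above background too and is described with array 1 below. Zbtb8a averaged 7.67 ± 0.13 and Zbtb41 8.70 ± 0.11, both above the limit. Zbtb6, Zbtb9, Zbtb11, Zbtb22, Zbtb34, Zbtb37, Zbtb39 and Zbtb43 were the other detected members of this group. The 3 members below background on every array were Zbtb3 with 6.95, 7.07 and 7.13, Zbtb12 with 6.63, 6.98 and 6.59, and Zbtb8b with 5.47, 5.72 and 5.52. Zbtb8b is the direct neighbour of Zbtb8a on chromosome 4, so this pair lay on both sides of the limit. The pair Zbtb34 and Zbtb43 on chromosome 2 lay above it together.

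The limit separated few members closely. Just above it, 5 members exceeded the mean limit by less than 0.5, namely Zbtb42 by 0.13, Zbtb4 by 0.19, Zbtb38 by 0.20, Zbtb8a by 0.27 and Zbtb48 by 0.37. Just below it were Zbtb26 and, with a mean 0.36 under the limit (a difference of -0.36), Zbtb3.

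The spread of the Zbtb genes between cohorts was near that of other genes. The median SD over the arrays was 0.085 for the 30 members above background on all arrays, against 0.093 for all genes above it on all arrays, and 0.089 for all 38 members, against 0.111 for all genes. In 31 of 38 members the highest and the lowest array differed by less than 0.3, against 70.5% of all genes, and the members' differences ran from 0.03 to 0.78. A difference over 0.5 was found in 3 members and in 1532 of the 19938 genes. No member passed the limma variance test, which asks by an F statistic whether a probe set varied over the arrays by more than others of its level (Benjamini-Hochberg adjusted p at least 0.988 for every member). By the same test, 6 of 28944 probe sets (0.0207%) passed. Among the genes, each by its brightest probe set, 4 passed: Xist and the Y-linked Eif2s3y, Kdm5d and Uty (adjusted p from 0.00868 to 0.0208 in the limma test). An unadjusted p under 0.05 was found for 3 members, Zbtb26 (0.0161), Zbtb21 (0.0205) and Zbtb10 (0.0228), and for 4.66% of all probe sets. With 3 arrays the test missed sizeable differences. Jun, 2.65-fold higher on array 1 than the mean of the others, had an adjusted p of 0.415 and Fos, 2.51-fold higher, one of 0.436 in the limma test. Missing the threshold is therefore no sign that a member was stable.

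**Figure D2:**
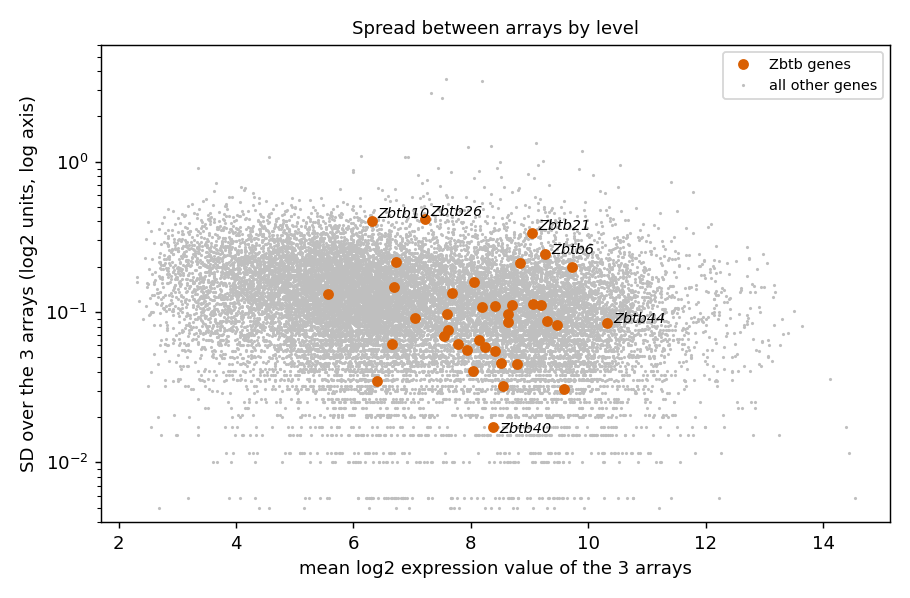
SD over the 3 arrays (vertical log axis, log2 units; SDs under 0.005 are drawn at 0.005) against the mean log2 expression value, for the 38 Zbtb genes (orange) and all other genes (grey). The Zbtb genes lie within the cloud of other genes, with Zbtb26, Zbtb10 and Zbtb21 in its upper part.

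The largest differences between cohorts set array 1 against the others. Array 1 was highest for 10 of 38 members, against 34.5% of all genes, and lowest for 17 of 38, against 39.3% of all genes. The mean deviation of the members from their own 3-array means was -0.016, 0.022 and -0.005 on arrays 1, 2 and 3, against -0.002, 0.006 and -0.004 for all genes. Array 1 lay more than 0.3 above the mean of arrays 2 and 3 for 3 members, against 8.17% of all genes, and more than 0.3 below it for 3 members, against 7.05%. The cut of 0.3 was chosen after the values were seen, and these shares of the members are near the background.

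On the high side, Zbtb21 had 9.43 on array 1 against 8.84 and 8.86 on arrays 2 and 3, which is 1.49-fold. Arrays 2 and 3 differed by only -0.02 for this gene, and array 1 lay outside them (unadjusted p = 0.0205, adjusted p = 0.988 in the limma test). Zbtb11, which controls genes of mitochondrial function and is required for neutrophil development in zebrafish, had 9.95 on array 1 against 9.57 and 9.66, which is 1.26-fold (unadjusted p = 0.111 in the limma test). Zbtb10 had 6.76 on array 1 against 6.20 and 5.98, all below background, so no fold is given. On the low side, the neighbours Zbtb6 and Zbtb26 were both lowest on array 1. Zbtb6 had 9.00 on array 1 against 9.34 and 9.47 on arrays 2 and 3, so that array 1 was 1.32-fold lower than their mean (unadjusted p = 0.0623 in the limma test). Zbtb26 had 6.74 on array 1, below background, against 7.48 and 7.43 on arrays 2 and 3, barely over their limits of 7.47 and 7.39. With array 1 set at its limit of 7.35, Zbtb26 was 1.07-fold lower there. The limits themselves ran from 7.35 on array 1 to 7.47 on array 2, so this fold is not a firm lower bound. The starts of the pair lie 12253 bases apart on the same strand of chromosome 2. Zbtb45 had 8.60 on array 1 against 9.00 and 8.92 (unadjusted p = 0.101 in the limma test).

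Array 1 also differed in genes outside the family, and their part in these differences was not tested. Xist and the Y-linked genes set array 1 against the others too. A part of sex cannot be told apart from other differences between these cohorts and was not tested. The immediate-early genes Fos and Jun had 9.39 and 11.01 on array 1, against 7.86 and 9.65 on array 2 and 8.27 and 9.56 on array 3. Over whole marker lists, the mean deviation from the 3-array mean on array 1 was 0.20 for 10 myeloid and dendritic genes, 0.20 for 7 NKT and innate-like genes, 0.07 for 5 B cell genes, 0.00 for 6 stromal genes, -0.03 for 3 erythroid genes, -0.16 for 10 DP genes and -0.21 for 8 thymic epithelial genes. On the linear scale, the summed values of the myeloid and dendritic list were 1739 on array 1, 1020 on array 2 and 1264 on array 3. The MHC class II genes Cd74 and H2-Ab1 carried most of this difference, with 8.83 and 9.26 on array 1, 7.27 and 7.91 on array 2 and 8.05 and 8.50 on array 3. The other 8 genes of the list, all below background on every array, summed to 671 on array 1, 625 on array 2 and 636 on array 3. In all, 6 of the 10 were highest on array 1. Without array 1, 31 members lay above background on both remaining arrays, the added one being Zbtb26, against 8281 of the 19938 genes. The median SD of the members was then 0.06, over 2 arrays only, and it was not compared with that of all genes.

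**Figure D3:**
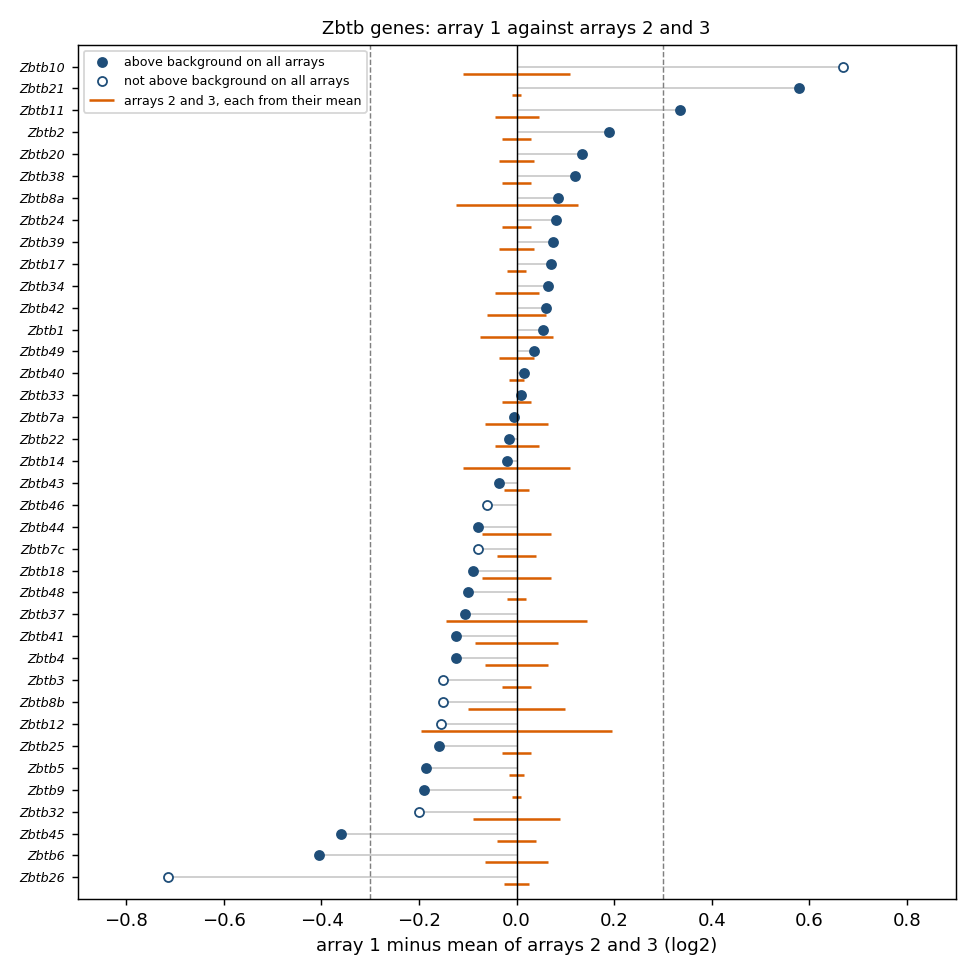
Value on array 1 minus the mean of arrays 2 and 3 (horizontal axis, log2) for each Zbtb gene, sorted; filled circles are genes above background on all arrays and open circles are the others. Orange bars show how far arrays 2 and 3 lay from their own mean, and dashed lines mark differences of 0.3; Zbtb10, Zbtb21 and Zbtb11 lie beyond the upper line and Zbtb45, Zbtb6 and Zbtb26 beyond the lower one.

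Relatives that share the BTB and zinc finger architecture but carry other symbols were mostly detected as well. Of 8 such genes, 6 exceeded the limit on all arrays and 2 on none, against 41.1% of all genes above it on all arrays. Bcl6, a repressor that drives germinal centre B cells and follicular helper T cells, had 9.89, 10.65 and 10.59 on arrays 1, 2 and 3 (10.38 ± 0.42). It was lowest on array 1 by 0.73 (a difference of -0.73 from the mean of arrays 2 and 3; unadjusted p = 0.00762, adjusted p = 0.959 in the limma test). Patz1 encodes MAZR, which restrains Cd8 and Zbtb7b expression in thymocytes before lineage choice, and had 10.76, 10.65 and 10.58 (10.66 ± 0.09). Mynn, Zfp131, Hic2 and Gzf1 were above background with means of 9.02, 9.02, 8.23 and 8.22. The tumour suppressor Hic1, with 6.83, 6.44 and 6.12, and the Bcl6 relative Bcl6b, with 5.44, 5.50 and 5.39, were under the limit on each array.

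The cofactors that BTB domains recruit were all detected among those measured. All 14 measured genes of the list lay above background on all arrays, against 41.1% of all genes. Bcor, a corepressor bound by the BCL6 BTB domain, had 8.87, 8.75 and 8.81 (8.81 ± 0.06). Hdac3, the deacetylase of the NCoR complex, had 10.21, 10.38 and 10.40 (10.33 ± 0.10), and Tbl1xr1, a subunit of the same complex, had 10.59, 10.51 and 10.52 (10.54 ± 0.04). Cul3, the ubiquitin ligase scaffold, had 11.18, 11.22 and 11.22 (11.21 ± 0.02). The median SD of the list was 0.075, against 0.093 for all genes above background on all arrays. Sin3b, a scaffold of a histone deacetylase complex, spread most, with 9.92, 10.40 and 10.29 (10.20 ± 0.25; unadjusted p = 0.0535 in the limma test).

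**Figure D4:**
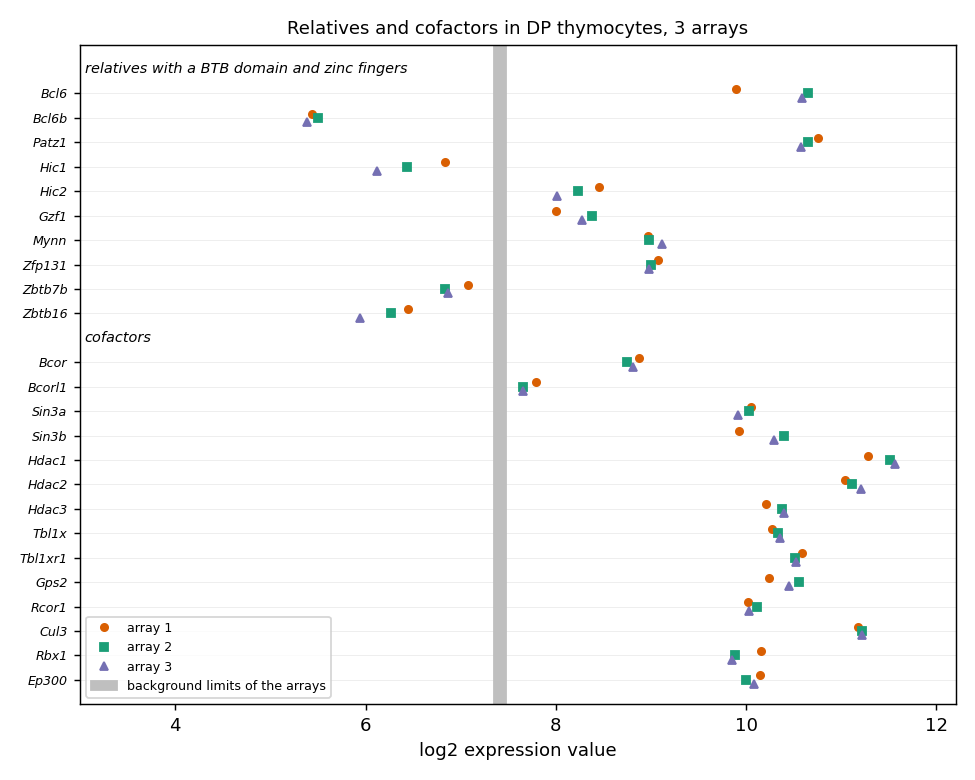
Log2 expression value (horizontal axis) of 10 relatives with a BTB domain and zinc fingers and of 14 cofactors on arrays 1, 2 and 3 (circles, squares and triangles). The grey band spans the background limits of the arrays; all cofactors lie right of it, and Bcl6b, Hic1, Zbtb7b and Zbtb16 lie left of it.

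The promoters of the detected members were rich in CpG. A RefSeq window was matched for 34 of the 38 members and, over all genes on the array, for 15614; where a gene had several starts, the most upstream one was used. The ratio of observed to expected CpG had a median of 0.84 over the 34 members, against 0.63 over all 15614 genes. It was 0.91 for the 28 members above background on all arrays and 0.48 for the other 6, against 0.81 for all genes detected on every array and 0.34 for all genes detected on no array. A ratio over 0.6 was found in 27 of the 28 detected members (96.4%), against 80.7% of all genes detected on every array. It was found in 2 of the other 6 members (33.3%), Zbtb12 and Zbtb26, against 29.5% of all genes detected on no array. Zbtb26 lay above background on 2 arrays, so for shares and medians these 6 are not strictly like the genes detected on no array. Zbtb33 had the highest ratio, 1.15, and Zbtb46 the lowest, 0.05, with a single CpG (a count of 1) in its window of 300 bases. Zbtb20 was the detected member with a CpG-poor window (0.21). These values describe 1 start per gene and were not tested.

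**Figure D5:**
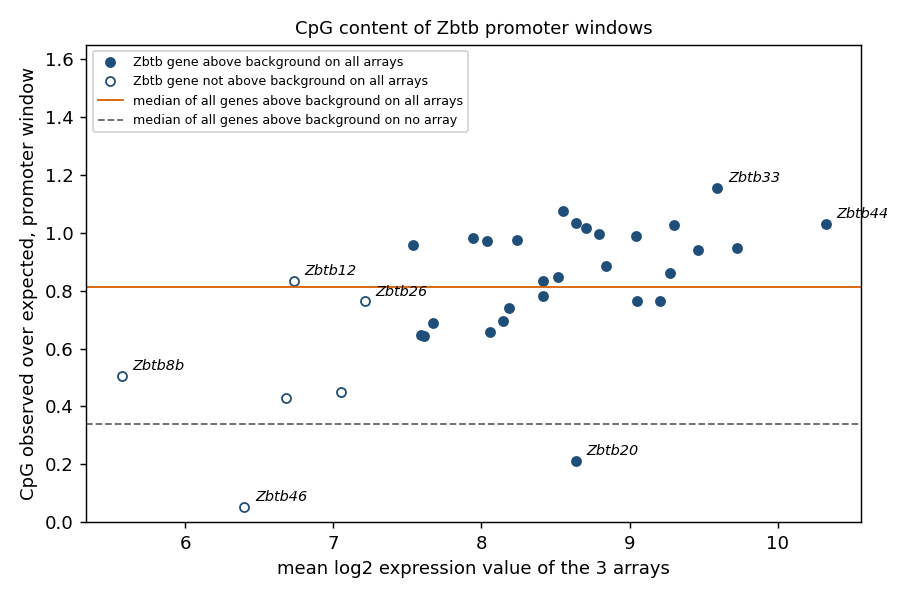
Ratio of observed to expected CpG in the promoter window (vertical axis) against the mean log2 expression value (horizontal axis) of 34 Zbtb genes. Filled circles are genes above background on all arrays and open circles are the others; lines give the medians of all genes above the limit on all arrays (0.81, solid) and of those above it on no array (0.34, dashed), and Zbtb20 is the filled circle below the dashed line.

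The letters CCGGAAG were found in 11 of the 34 windows (32.4%), against 12.5% of windows of all genes and 22.4% of those of all genes above background on all arrays. The 11 were Zbtb6, Zbtb9, Zbtb11, Zbtb24, Zbtb26, Zbtb33, Zbtb34, Zbtb37, Zbtb41, Zbtb43 and Zbtb45. Zbtb10 has no window here and was not searched for any of the letters. The letters TGTGGT were in 6 windows (17.6%, against 14.2% of all), and CAGCTG, the E-box letters that E proteins such as E47 favour, were in 2 (5.88%, against 15.8%), those of Zbtb2 and Zbtb32. The Kaiso letters TCCTGCNA were in the window of Zbtb37 alone (2.94%, against 4.67%). Letters added after the values were seen were TGACGTCA and the AP-1 letters TGANTCA. The letters TGACGTCA stood in the windows of Zbtb11 and Zbtb21 (5.88%, against 2.47% of all), and TGANTCA in that of Zbtb46 (2.94%, against 6.93%). Among windows of all genes above background on all arrays, 11.9% held TGTGGT, 13.5% CAGCTG, 4.53% TCCTGCNA, 3.55% TGACGTCA and 3.9% TGANTCA. Both strands were searched, and no matches of different letters overlapped. Shares over so few windows rest on single genes, and none was tested.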

How the data were processed

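Total RNA was extracted with TRIzol and hybridised to 1 Affymetrix array for each of 3 DP samples; the same protocol text mentions formaldehyde before the sort without saying whether RNA samples were fixed. Each probe set has 1 deposited log2 value per array, a unit inferred from the range of 1.6 to 14.94. The authors used the R package affy, per the submitters' processing notes; the version, settings and genome build were not given in the sources used here. Array totals are nearly equalised, so a global change in RNA content would not show.

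Of 35556 probe sets, 6612 in a lowest-numbered block without symbols were left out, and 28944 entered the limma 3.58.1 test (R 4.3.3). Symbols came from the platform table, where 21789 probe sets have 1 symbol, 1621 several and 12146 none; a RefSeq table of GRCm38.p6 changed 0 of them. Counts and medians were computed in Python 3.11.15 with pandas 2.3.3 and numpy 2.4.6. The labels call the cohorts biological replicates. Every member, relative, cofactor and marker could be named, and 2 motifs were added later. The members and lists were chosen with earlier results of these data known. Protein features named in the plan were not used here. Alternatives were other limits, normalizations, probe set rules, priors and leaving out each array.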

Additional observations from a re-analysis of the deposited data

How the results depend on the processing

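Of 97 alternative values for 20 results, 92 stayed within the spread between arrays or, for counts, within 1.5 times, and 5 did not. Reversals were not a category of this comparison. For the array 1 differences of single genes, the spread used was the gene's own SD over the arrays, which those differences themselves enlarge. Staying within it is therefore a weak check for them. The count of members above background was 30 as reported, 30 with the limit at the organ genes' median plus 1, 23 with the 99th percentile, and from 30 to 31 without 1 array each. The median level of the members ranged from 8.30 to 8.33 without 1 array each, which passes the narrow spread of the array medians, and their median SD from 0.0566 without array 1 to 0.0884 without array 3. The limma variance test called 0 members in every fit run, with 2 to 4 members at an unadjusted p under 0.05 in fits on all 28944 probe sets and 1 of 31 in the fit on brighter ones. Over all probe sets it called 6, between 5 and 18 without 1 array each (18 without array 1), 0 with a prior without a trend (1219 at an unadjusted p under 0.05) and 0 when only probe sets above background on at least 1 array were fitted (548). The cause of these changes was not tested. The signs of the array 1 differences of Zbtb6, Zbtb10, Zbtb11, Zbtb21, Zbtb26, Zbtb45 and Bcl6 held under quantile normalization and median centring. Median centring moved the counts highest and lowest on array 1 to 13 and 15. No paired analysis was possible because there is a single group. The number of arrays and signal near background limit all calls.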
